A study of Homo sapiens with 8 samples.

Results

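ISG15 and the enzymes that attach it to proteins and take it off again were examined in A549 cells, a widely used line derived from a human lung adenocarcinoma, in which the lncRNA AFAP1-AS1 had been overexpressed or knocked down. The members are ISG15, UBA7, UBE2L6, HERC5, HERC6 and USP18, which are 6 of the 17056 genes in the expression table. They were chosen by symbol for their roles, from an interferon-linked set whose levels in these same libraries had already been seen. Their differences between groups are therefore given as a description without p-values. Of the 6 members, 5 reached a mean of 1 FPKM (fragments scaled by transcript length and library size, a level per length) over the 8 libraries and entered the fit of 10648 genes, while UBA7 did not.

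There were 4 groups with 2 libraries each. The group titled OE carries the genotype label of AFAP1-AS1 overexpression, and Vector is its control. ASO is labelled as AFAP1-AS1 knockdown, and ASONC is its negative control. ASO commonly stands for antisense oligonucleotide, and under that reading ASONC cells also received an oligonucleotide, whereas Vector and OE cells are not labelled with one. The labels give no dose, time, clone or culture, so the spread between replicates may be technical. The level of AFAP1-AS1 is not analysed here and gives no check of the labels.

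Recovered read totals ran from 33662221 to 37508996 per library. The ASONC libraries stood apart, with 0 reads for 1435 and 1341 genes, where each OE, ASO and Vector library had 2205 to 2327 such genes. Across all genes, the ASO against ASONC, ASONC against Vector and ASO against Vector differences varied with GC content and length, as given beside those results. The epithelial keratins KRT8 and KRT18 were at 981 to 1320 FPKM in every library. PTPRC, the pan-leukocyte marker, was at 0 in 7 libraries and at 0.00429 FPKM in ASONC replicate 2. EPCAM stayed under 1 FPKM in every library and CDH1 at 0.841 to 4.42 FPKM, so these epithelial markers were low or nearly absent. Of 5 immune markers, 4 were measured and CD3E is not analysed here. Their summed level was 51.6 to 53.0 FPKM in OE, 66.5 to 67.9 in ASO, 91.1 to 92.0 in ASONC and 50.4 to 52.1 in Vector, nearly all of it CD68, a lysosomal protein gene that is not confined to leukocytes. The 4 fibroblast markers summed to 0.572 to 2.73 FPKM and the 3 endothelial ones to 0.0899 to 1.69 FPKM over the libraries. The part of these levels in the results was not tested.

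ISG15 is a ubiquitin-like protein with tandem ubiquitin-like domains, and its gene is among the most strongly interferon-induced genes known. Interferon binding activates JAK1 and TYK2, which phosphorylate STAT proteins. With IRF9 these form a complex that binds interferon-stimulated response elements in gene promoters. The protein is joined to lysines of other proteins by a relay: UBA7 activates it, UBE2L6 carries it, and an E3 ligase passes it on. HERC5 is the main ISG15 ligase in human cells, and HERC6 holds that role in mouse. USP18 removes ISG15 from its targets and also dampens signalling at the interferon receptor subunit IFNAR2.

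RefSeq promoter windows on GRCh38.p14, running from 250 bases before to 50 bases after the start, were found for 4 of the 6 members. They are shown because the interferon complex acts through such elements and the members' levels differed between groups. The search was for 2 GAAA half-sites separated by any 2 bases, on either strand, with overlapping matches counted. Matched bases are in capitals. The ISG15 window is chr1:1013247-1013546 on the plus strand, HERC5 is chr4:88456869-88457168 on the plus strand, HERC6 is chr4:88378602-88378901 on the plus strand, and UBE2L6 is chr11:57567886-57568185 on the minus strand, each written 5′ to 3′.
ISG15: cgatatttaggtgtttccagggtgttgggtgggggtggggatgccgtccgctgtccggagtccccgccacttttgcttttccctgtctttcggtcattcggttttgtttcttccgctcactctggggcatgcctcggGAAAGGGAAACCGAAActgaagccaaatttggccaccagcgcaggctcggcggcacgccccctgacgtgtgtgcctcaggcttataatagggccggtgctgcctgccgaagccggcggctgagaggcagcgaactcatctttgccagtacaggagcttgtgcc
HERC5: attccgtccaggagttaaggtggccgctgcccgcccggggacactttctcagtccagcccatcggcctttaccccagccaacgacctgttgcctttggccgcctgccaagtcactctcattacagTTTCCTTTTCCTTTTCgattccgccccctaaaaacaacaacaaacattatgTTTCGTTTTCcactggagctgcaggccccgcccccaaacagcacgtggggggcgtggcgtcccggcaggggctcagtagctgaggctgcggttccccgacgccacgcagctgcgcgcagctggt
HERC6: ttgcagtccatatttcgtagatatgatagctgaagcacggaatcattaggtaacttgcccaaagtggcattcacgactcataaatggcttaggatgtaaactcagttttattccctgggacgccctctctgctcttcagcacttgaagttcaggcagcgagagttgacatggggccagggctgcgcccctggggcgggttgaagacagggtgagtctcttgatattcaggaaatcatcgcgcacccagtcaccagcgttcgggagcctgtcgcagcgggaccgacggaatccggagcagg
UBE2L6: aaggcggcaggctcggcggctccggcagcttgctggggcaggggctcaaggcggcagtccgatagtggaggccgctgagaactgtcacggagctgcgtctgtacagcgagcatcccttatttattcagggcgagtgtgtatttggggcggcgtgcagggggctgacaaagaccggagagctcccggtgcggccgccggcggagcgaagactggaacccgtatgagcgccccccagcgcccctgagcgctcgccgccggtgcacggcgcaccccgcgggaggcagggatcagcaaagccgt

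The ISG15 window held 2 overlapping half-site pairs on the window's own strand, between positions -113 and -98. HERC5 held 3 pairs on the other strand, of which 2 overlapped between -125 and -110 and the remaining one lay between -74 and -65. No pair was found in the HERC6 window or in either of the 2 UBE2L6 windows. Across all 35116 promoter windows, 3.57% held at least 1 pair, 0.259% held at least 2 and 0.037% held at least 3. Among the windows of tested genes 2.73% held at least 1. A match describes the letters of a window and is not evidence of binding.

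The modifier itself varied most. ISG15 had 51.0 and 48.3 FPKM in OE libraries, 12.5 and 12.0 FPKM in ASO libraries, 77.7 and 77.6 FPKM in ASONC libraries, and 35.8 and 34.9 FPKM in Vector libraries. These levels rested on between 273 reads in ASO replicate 2 and 1819 reads in ASONC replicate 2. No libraries of different groups overlapped. Among all tested genes, groups did not overlap for 35.1% in OE against Vector, 62.5% in ASO against ASONC, 82.1% in ASO against Vector and 84.7% in ASONC against Vector. The order from highest to lowest in FPKM was ASONC, OE, Vector and ASO. The highest group mean was 6.31 times the lowest. With a trend on GC content and length removed, ISG15 differed from Vector by 0.35 in ASONC and by 0.44 in OE (log2 scale). OE then stood above ASONC. Among the levels of all tested genes, the mean of ISG15 exceeded 58.6% of genes in ASO and 91.7% in ASONC.

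ISG15 lies on chromosome 1 from 1013497 to 1014540 (RefSeq, GRCh38.p14). In GENCODE release 29 it shares 36 exonic bases, 3.83% of its exonic length, with the processed pseudogene AL645608.3 on the opposite strand. No source used here gives the strand setting of the counting, so reads over that stretch cannot be assigned with certainty.

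UBA7, the E1 that activates ISG15, was close to the limit of detection. It had 0.159 and 0.260 FPKM in OE libraries, 0.120 and 0.0162 FPKM in ASO libraries, 0.137 and 0.188 FPKM in ASONC libraries, and 0.375 and 0.219 FPKM in Vector libraries. Per group these came from 54 reads in OE (exact Poisson 95% interval 40.6 to 70.5), 17 in ASO (9.9 to 27.2), 41 in ASONC (29.4 to 55.6) and 72 in Vector (56.3 to 90.7), intervals that cover counting error only. OE overlapped both ASONC and Vector, and the ASO mean rested on 15 reads in replicate 1 and 2 reads in replicate 2. UBA7 lies on chromosome 3 from 49805209 to 49813953.

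UBE2L6, the E2 that accepts ISG15 from UBA7, was the steadiest member. Its levels were 33.7 and 33.3 FPKM in OE, 26.3 and 25.4 FPKM in ASO, 34.5 and 34.9 FPKM in ASONC, and 28.7 and 29.6 FPKM in Vector. In FPKM the groups kept the order seen for ISG15 without overlap, but the highest mean was only 1.35 times the lowest. Log2 differences from Vector were 0.03 in ASONC and 0.19 in OE on the TPM scale. They were -0.19 and 0.18 with the trend on GC content and length removed. Under both alternatives OE stood above ASONC. UBE2L6 lies on chromosome 11 from 57551662 to 57567935.

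The ligases HERC5 and HERC6 are neighbours on chromosome 4, 14022 bases apart, from 88457119 to 88506163 and from 88378852 to 88443097. HERC5 had 5.22 and 5.38 FPKM in OE, 2.45 and 1.99 FPKM in ASO, 3.32 and 3.34 FPKM in ASONC, and 3.87 and 3.96 FPKM in Vector. HERC6 had 8.96 and 8.30 FPKM in OE, 3.17 and 2.63 FPKM in ASO, 5.90 and 5.78 FPKM in ASONC, and 6.90 and 7.36 FPKM in Vector. In both genes the order was OE, Vector, ASONC and ASO with no overlap between groups, so ASONC stood below Vector here and above it for ISG15. The highest mean was 2.39 times the lowest for HERC5 and 2.98 times for HERC6.

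USP18, the ISG15-specific protease, had 7.96 and 8.83 FPKM in OE, 4.99 and 5.75 FPKM in ASO, 9.92 and 8.89 FPKM in ASONC, and 6.63 and 7.01 FPKM in Vector. In FPKM its groups followed the ISG15 order without overlap, although OE replicate 2 and ASONC replicate 2 were close together. Log2 differences from Vector were 0.23 in ASONC and 0.28 in OE on the TPM scale. They were 0.08 and 0.25 with the trend on GC content and length removed. Under both alternatives OE stood above ASONC. USP18 lies on chromosome 22 from 18150170 to 18177397. USP41, a near-identical copy, had 0 to 2 reads in a library. No source used here says how reads shared by the pair were counted, so the USP18 level is uncertain to that extent.

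**Figure D1:**
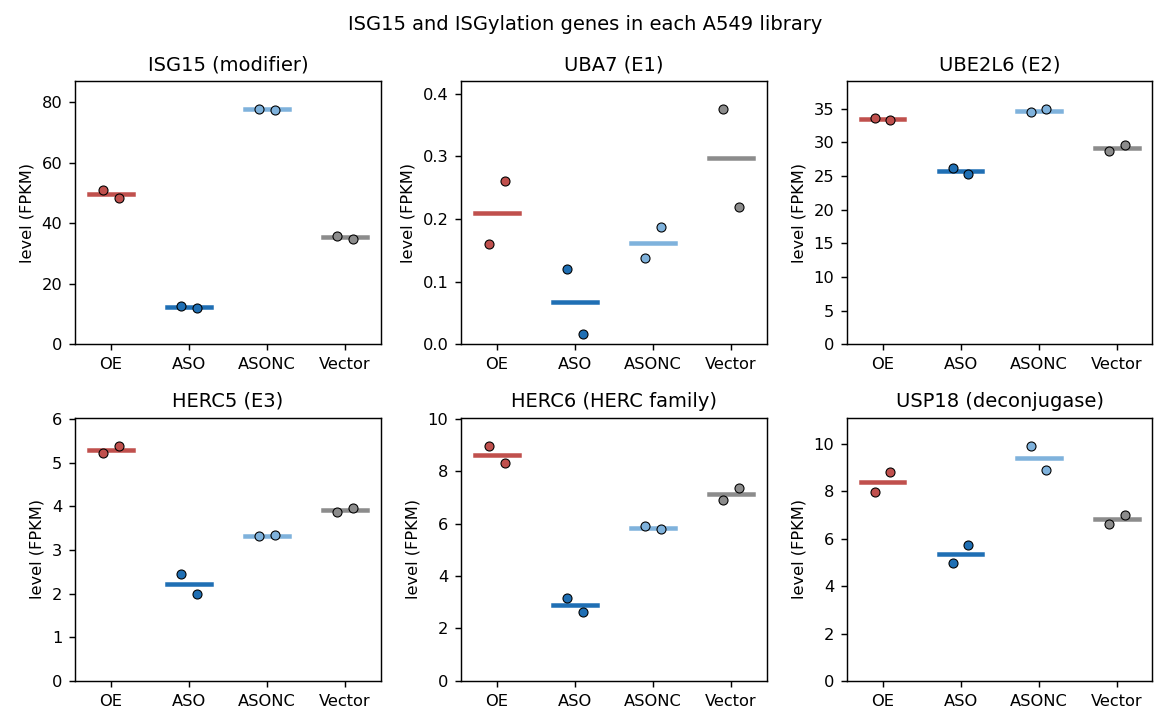
Level of each member in FPKM (vertical axes from 0, a separate scale for each gene) in OE, ASO, ASONC and Vector libraries. Points are the 2 libraries of a group and bars are group means. ISG15, UBE2L6 and USP18 are highest in ASONC, HERC5 and HERC6 in OE, and all 6 are lowest in ASO.

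With AFAP1-AS1 overexpression, all 5 tested members were higher than in Vector cells, by modest amounts. ISG15 averaged 49.7 ± 1.91 FPKM in OE and 35.4 ± 0.631 FPKM in Vector (SD, n = 2 each), a ratio of 1.40 and a difference of 0.48 ± 0.05 (SE) on the log2(FPKM + 1) scale. Such differences understate the change of genes with low levels. HERC5 differed by 0.36 ± 0.08, USP18 by 0.26 ± 0.08, HERC6 by 0.24 ± 0.08 and UBE2L6 by 0.19 ± 0.05 on that scale. UBA7 was the exception in direction, with 0.210 ± 0.0714 FPKM in OE and 0.297 ± 0.111 FPKM in Vector (SD, n = 2 each), and its libraries overlapped.

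A gene was called at an adjusted p below 0.05 in limma over all tested genes. ISG15 was the only 1 of 5 members called higher in OE, where the calls made up 0.0657% of tested genes, 7 in number. Because those contrasts chose the members, nothing is read from that count. The median difference of the 5 members was 0.26, and that of all tested genes was 0.002.

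In the knockdown, every tested member was lower than in its own control. ISG15 averaged 12.3 ± 0.356 FPKM in ASO and 77.6 ± 0.069 FPKM in ASONC (SD, n = 2 each), a ratio of 0.158 and a log2 difference of -2.56 ± 0.05. HERC6 averaged 2.90 ± 0.376 FPKM in ASO and 5.84 ± 0.0854 FPKM in ASONC, a ratio of 0.496 and a log2 difference of -0.81 ± 0.08. The log2 differences were -0.71 ± 0.08 for USP18, -0.43 ± 0.08 for HERC5 and -0.41 ± 0.05 for UBE2L6. No tested member's libraries overlapped between ASO and ASONC, which held for 62.5% of all tested genes. UBA7 had 15 and 2 reads in ASO, against 17 and 24 reads in ASONC. All 5 tested members were called lower, in a comparison that called 10.9% of tested genes lower and 11.3% higher. The median difference was -0.71 for the members and 0.016 for all tested genes. In bulk RNA, fewer cells with a transcript and less of it per cell cannot be told apart.

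The knockdown libraries were also below Vector, the control of the other arm. ISG15 in ASO was 0.347 times its Vector level, HERC6 0.407 times, HERC5 0.566 times, USP18 0.788 times and UBE2L6 0.885 times. Log2 differences were -1.45 ± 0.05, -1.06 ± 0.08, -0.62 ± 0.08, -0.30 ± 0.08 and -0.17 ± 0.05 in that order. All 5 were called lower, where 28.8% of tested genes were called lower and 34.1% higher. The USP18 call was lost without ASO replicate 1, at -0.21, and without Vector replicate 2, at -0.26. Across 10426 genes with a GENCODE value, these differences had a Spearman rho of 0.41 with GC content and -0.44 with exonic length. With that trend removed, an alternative chosen after seeing the data, all 5 members stayed called, at -1.97 for ISG15, -1.02 for HERC6, -0.58 for HERC5, -0.54 for USP18 and -0.48 for UBE2L6. On the TPM scale USP18 was -0.49 and UBE2L6 -0.35.

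The controls did not match each other. ISG15 in ASONC was 2.19 times its level in Vector, a log2 difference of 1.11 ± 0.05. USP18 was higher in ASONC by 0.41 ± 0.08 and UBE2L6 by 0.24 ± 0.05, whereas HERC6 differed by -0.25 ± 0.08 and HERC5 by -0.18 ± 0.08. Of the members, 3 were called higher and 1 lower, where 36.8% of tested genes were called higher and 31.8% lower. The ASONC libraries enter both the ASO comparison and this one, and Vector enters 3 of the 4 comparisons, so these sets of differences are not independent.

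Length and base composition moved with this contrast. Across the same 10426 genes, the ASONC against Vector difference had a Spearman rho of 0.52 with GC content and -0.47 with exonic length, as a description without p. The corresponding rho values for ASO against ASONC were -0.45 and 0.24, and for OE against Vector 0.13 and -0.06. ISG15 is short and GC-rich, at 941 exonic bases and 63.4% GC. UBE2L6 has 2197 bases at 57.2%, USP18 2129 bases at 51.6%, HERC6 5793 bases at 46.3% and HERC5 4766 bases at 44.1%. Among the tested members, those above Vector in ASONC were the 3 shorter ones with higher GC, and the 2 below were the long ones. UBA7, which was not tested, has 4545 bases at 58.3% GC, a higher GC content than UBE2L6 or USP18. Its ASONC level was nevertheless 0.547 times its Vector level, without overlap, from 41 reads in ASONC and 72 in Vector. The split by GC content therefore did not extend to UBA7.

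With the trend on GC and length removed, ISG15 in ASONC against Vector was 0.35 and still called. USP18 was 0.08 and no longer called, HERC6 was -0.18 and no longer called, and UBE2L6 was called in the opposite direction, at -0.19. The HERC6 call was also lost without ASONC replicate 2 and without Vector replicate 2. UBE2L6 was 0.03 and not called on the TPM scale, where HERC5 was -0.41 and called. In ASO against ASONC the same removal gave -2.32 for ISG15, -0.84 for HERC6, -0.62 for USP18, -0.47 for HERC5 and -0.29 for UBE2L6, all called.

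**Figure D2:**
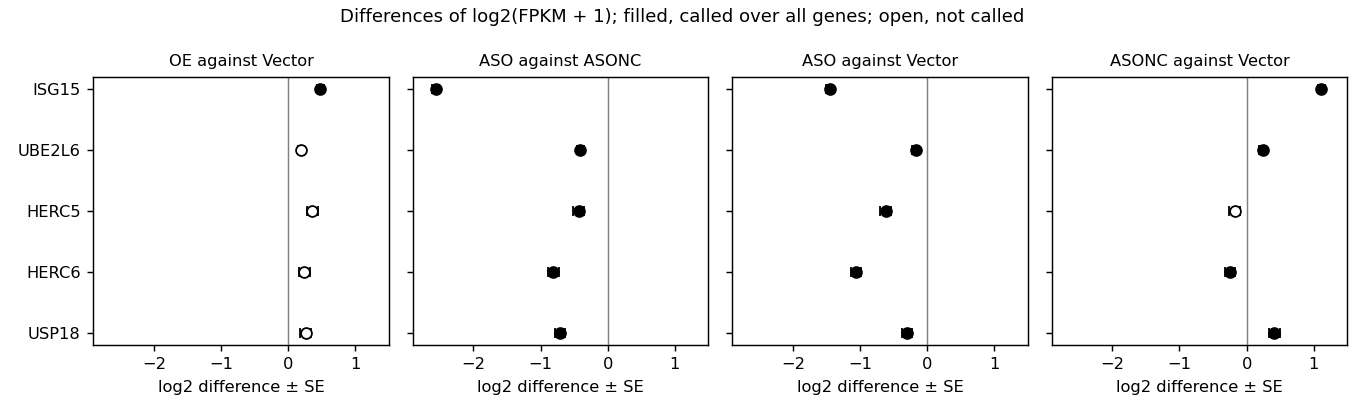
Log2(FPKM + 1) differences ± SE of the 5 tested members (rows) in 4 comparisons (panels, first-named group minus second). Filled points were called in limma over all genes. All 5 lie left of 0 in both ASO panels and right of 0 in the OE panel, and they split in ASONC against Vector, where ISG15 is at 1.11 and HERC6 at -0.25.

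Because each library carries all members, their ratio within it does not depend on library scaling. It can still follow the trend with GC content and length, which was not removed from the ratios. The ratio of ISG15 to UBE2L6, both per length, was 1.52 and 1.45 in OE, 0.478 and 0.475 in ASO, 2.25 and 2.22 in ASONC, and 1.25 and 1.18 in Vector. The transcript of the modifier thus exceeded that of its E2 in every library except those of the knockdown. ISG15 relative to USP18 was 6.41 and 5.47 in OE, 2.51 and 2.09 in ASO, 7.83 and 8.73 in ASONC, and 5.40 and 4.99 in Vector. OE libraries were above Vector by a narrow gap in that ratio.

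ISG15 relative to HERC5 was 9.78 and 8.97 in OE, 5.13 and 6.05 in ASO, 23.4 and 23.2 in ASONC, and 9.25 and 8.81 in Vector. Here OE and Vector overlapped, and ASONC stood far above the rest. With the GC and length trend removed, ISG15 in ASONC against Vector was 0.35 on the log2 scale, against 1.11 before. HERC5 was then -0.11, against -0.18 before. The ratio of HERC6 to HERC5 was 1.72 and 1.54 in OE, 1.29 and 1.33 in ASO, 1.78 and 1.73 in ASONC, and 1.78 and 1.86 in Vector. It was lowest in ASO, and the other 3 groups were close to each other.

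**Figure D3:**
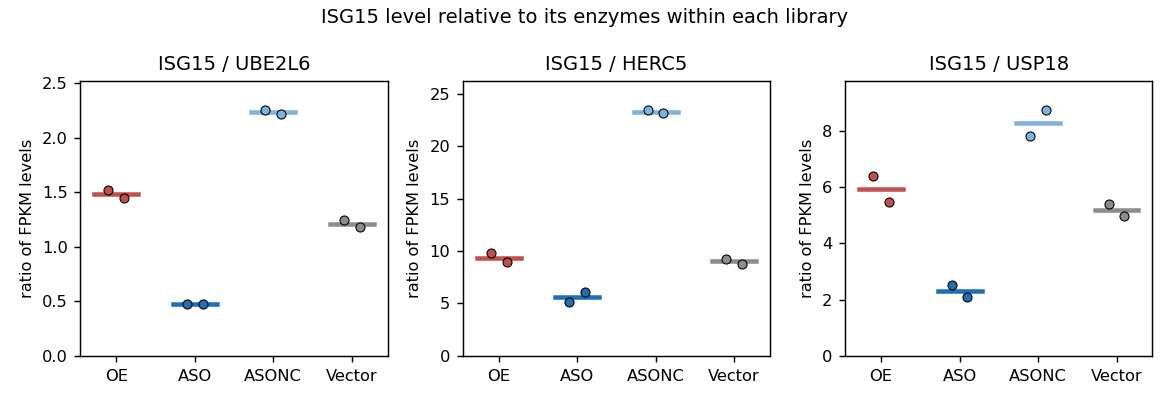
Ratio of the ISG15 level to the level of UBE2L6, HERC5 and USP18 within each library (vertical axes, FPKM over FPKM, from 0). Points are libraries and bars are group means in OE, ASO, ASONC and Vector. ASO is lowest and ASONC highest in each panel, with ISG15 over UBE2L6 at 0.478 and 0.475 in ASO and 2.25 and 2.22 in ASONC. The trend with GC content and length is not removed.

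The signalling genes upstream of ISG15 were lower in the knockdown in part of the relay. Of 13 tested genes for interferon receptors, kinases, STATs, IRFs and SOCS inhibitors, 8 fell and 1 rose in ASO against ASONC, with a median of -0.46. In counts of genes, here and below, rose and fell mean called higher and called lower. This list and those below were drawn up with earlier results of these data known. Their counts and p-values are therefore a description and not an independent test. Of all tested genes, 10.9% fell and 11.3% rose in that comparison. IRF9, the DNA-binding subunit of the interferon-activated complex, had 14.1 and 12.5 FPKM in ASO, against 40.8 and 37.5 FPKM in ASONC. It fell by 1.49 ± 0.07 on the log2 scale (limma, adjusted p = 3.79e-08). IRF7, which amplifies interferon production, had 2.97 and 1.75 FPKM in ASO, against 16.0 and 15.6 FPKM in ASONC, a difference of -2.34 ± 0.15 (adjusted p = 7.85e-07).

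IRF1 and IRF3, factors that can act on ISG15 directly, fell by 0.54 ± 0.07 (limma, adjusted p = 0.000266) and 0.25 ± 0.05 (adjusted p = 0.00693). The IRF3 call was lost with the GC and length trend removed, at -0.16. The kinases JAK1 and TYK2 were not called, at 0.04 ± 0.04 and -0.02 ± 0.06.

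Against Vector, IRF1 in ASO rose by 0.31 ± 0.07 (limma, adjusted p = 0.00193) and IRF3 by 0.25 ± 0.05 (adjusted p = 0.00156). Neither rise was called on the TPM scale, at 0.16 and 0.09. Of the 13 genes, 3 rose and 5 fell in ASO against Vector, or 0 and 6 on the TPM scale. With FPKM values 34.1% of all tested genes rose and 28.8% fell in that comparison. Between the controls, 8 rose and 3 fell in ASONC, or 6 and 3 on the TPM scale. With FPKM values 36.8% of all tested genes rose and 31.8% fell in ASONC against Vector. IRF9 rose there by 0.72 ± 0.07 (limma, adjusted p = 1.74e-06), while JAK1 fell by 0.75 ± 0.04 (adjusted p = 1.33e-08). As with the HERC genes, JAK1 was thus lower in ASONC than in Vector although ISG15 was higher.

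Further enzymes that act on ISG15 were mostly not called in the knockdown. Of 8 tested genes of this kind, which include the shared ligases TRIM25 and ARIH1 and proteases reported to cleave ISG15, 1 fell and 1 rose in ASO against ASONC. The shares of all tested genes there were 10.9% and 11.3%. TRIM25, itself interferon-induced, had 26.6 and 27.9 FPKM in ASO, against 41.6 and 43.2 FPKM in ASONC, and fell by 0.62 ± 0.05 (limma, adjusted p = 2.81e-06). USP16 rose by 0.33 ± 0.07 (adjusted p = 0.00495), a call lost with the GC and length trend removed, at 0.19. USP16 was also far lower in ASONC than in Vector, at -1.38 ± 0.07 (limma, adjusted p = 1.17e-08). In ASO against Vector 1 of the 8 rose and 3 fell, where 34.1% and 28.8% of all tested genes did. In ASONC against Vector 1 of the 8 rose and 4 fell, where 36.8% and 31.8% of all tested genes did. On the TPM scale these became 0 and 5, and 0 and 6. With the GC and length trend removed they became 2 and 3, and 2 and 2, and ARIH1 in ASONC against Vector turned from -0.34 to 0.28, called in both.

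Among the transcripts of 18 proteins listed as targets of ISG15, 5 were called lower and 1 higher in ASO against ASONC. Limma called 10.9% of all tested genes lower and 11.3% higher there. The targets called lower include antiviral effectors. MX1, a GTPase that restricts viruses, had 0.584 and 0.491 FPKM in ASO, against 4.65 and 4.67 FPKM in ASONC, and fell by 1.88 ± 0.09 (limma, adjusted p = 8.64e-08). The RNA sensors IFIH1 and DDX58 (RIG-I) fell by 1.60 ± 0.10 (limma, adjusted p = 4.41e-07) and 1.05 ± 0.08 (adjusted p = 3.67e-06). The kinase EIF2AK2 (PKR) fell by 0.40 ± 0.06 (limma, adjusted p = 0.000946). Of these targets 6 rose and 8 fell in ASO against Vector, where 34.1% and 28.8% of all tested genes did. In ASONC against Vector 7 rose and 6 fell, where 36.8% and 31.8% of all tested genes did. The TPM scale turned these to 2 and 11, and 1 and 9, and removal of the GC and length trend left 6 and 8, and 7 and 3.

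Taking the signalling genes, further enzymes and targets as a single list of 39 tested genes, 3 rose and 14 fell in ASO against ASONC. The shares of all tested genes were 11.3% and 10.9%. The median difference of the 39 was -0.02, against 0.016 for all tested genes. In OE against Vector 0 of the 39 were called by limma on FPKM values, with 9 at an unadjusted p below 0.05. Of all 10648 tested genes, 7 were called and 738 had an unadjusted p below 0.05. The alternative of voom on recovered reads called 4 of the 39, IRF9, DDX58 and MX1 among them, all higher in OE. It called 27 of all tested genes. MX1 had 5.12 and 4.94 FPKM in OE, against 3.78 and 3.04 FPKM in Vector, a difference of 0.46 ± 0.09 (limma on FPKM, adjusted p = 0.141). In ASO against Vector 10 of the 39 rose and 16 fell, where 34.1% and 28.8% of all tested genes did. In ASONC against Vector 16 rose and 13 fell, where 36.8% and 31.8% of all tested genes did. On the TPM scale the counts were 2 and 22, and 7 and 18. With the GC and length trend removed they were 10 and 17, and 16 and 7.

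**Figure D4:**
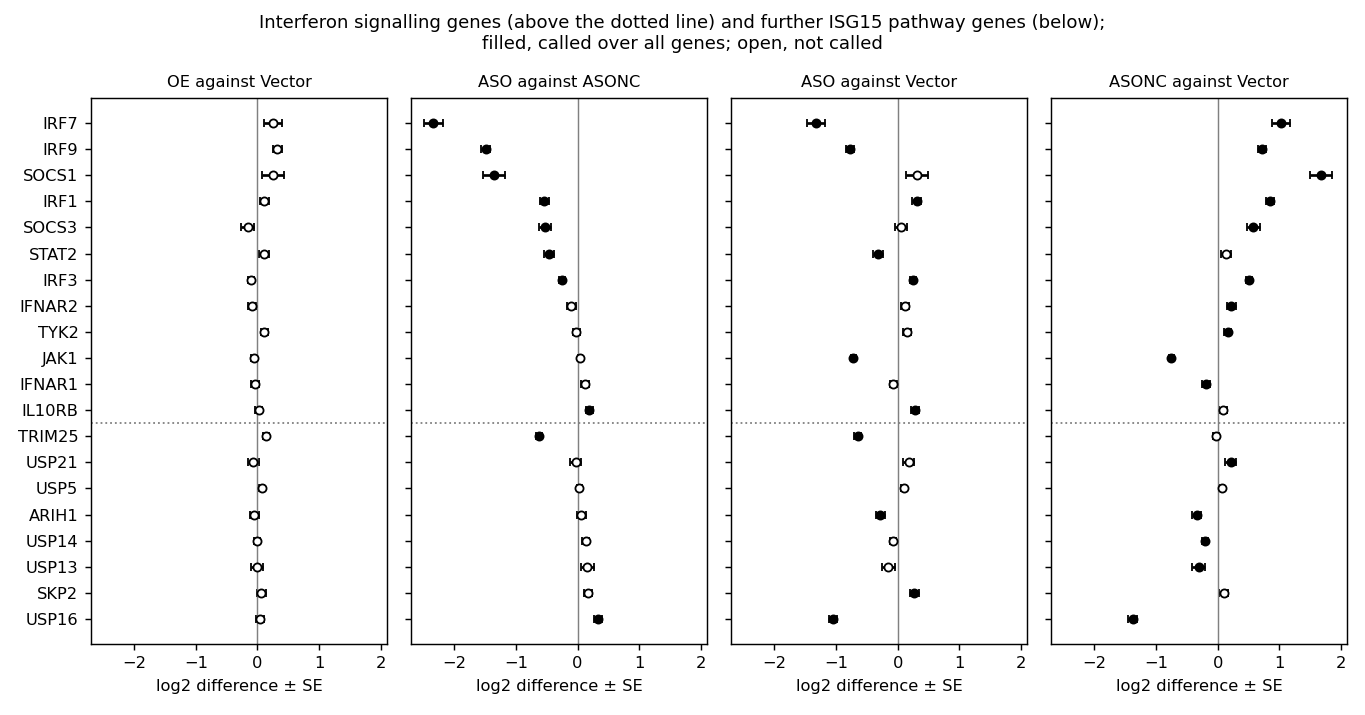
Log2(FPKM + 1) differences ± SE (horizontal axes) of 12 of the 13 interferon signalling genes and 8 further ISG15 enzymes (rows, ordered within each set by ASO against ASONC) in 4 comparisons. Filled points were called in limma over all genes. No point is filled in OE against Vector, IRF7 and IRF9 are at -2.34 and -1.49 in ASO against ASONC, and JAK1 lies left of 0 in ASONC against Vector while IRF9 lies right of it.

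Family relatives outside the ISG15 relay are given as a description. The members came from a set whose levels had been seen, so nothing is read from a contrast between members and relatives. UBA1 and UBA6 activate ubiquitin, UBE2L3 is the ubiquitin E2 closest to UBE2L6, and HERC1, HERC2 and HERC4 share the HERC architecture. In ASO against ASONC 0 of these 6 were called by limma, with 1 at an unadjusted p below 0.05 and 1 called with voom on recovered reads. Limma called 10.9% of all tested genes lower and 11.3% higher there. UBE2L3 had 53.7 and 56.0 FPKM in ASO, against 51.7 and 51.9 FPKM in ASONC, a difference of 0.08 ± 0.04 (limma, adjusted p = 0.211), and was called at 0.14 with the GC and length trend removed. UBA6 differed by 0.22 ± 0.08 (adjusted p = 0.0752), and was called at 0.29 on the TPM scale. HERC3, the neighbour of HERC5 and not tested at under 1 FPKM on average, had 0.826 and 0.775 FPKM in ASO, against 0.687 and 0.738 FPKM in ASONC.

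In OE against Vector 0 of 6 were called by limma, 0 had an unadjusted p below 0.05 and 0 were called with voom on recovered reads. Limma called 0.0657% of all tested genes there. Against Vector 5 of 6 fell in ASONC, where 31.8% of all tested genes did. In ASO 1 rose and 5 fell against Vector, where 34.1% and 28.8% of all tested genes did. With the GC and length trend removed 1 rose and 4 fell in ASONC, and 1 rose and 1 fell in ASO. HERC1, a giant member of the family, fell by 0.65 ± 0.09 in ASONC against Vector (limma, adjusted p = 7.11e-05), more than HERC6 differed in that contrast.

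Other ubiquitin-like systems (NEDD8, SUMO, UFM1, URM1, ATG12 and FAT10, with ubiquitin genes) gave 4 genes that rose and 1 that fell of 34 tested in ASO against ASONC, with a median of 0.03. The shares of all tested genes there were 11.3% and 10.9%. UFL1, the UFM1 ligase, rose by 0.39 ± 0.08 (limma, adjusted p = 0.00367). In OE against Vector 0 of the 34 were called by limma or with voom on recovered reads, and 1 had an unadjusted p below 0.05. Limma called 0.0657% of all tested genes there. In ASO against Vector 12 rose and 7 fell, or 7 and 15 on the TPM scale. With FPKM values 34.1% of all tested genes rose and 28.8% fell there. In ASONC against Vector 12 rose and 10 fell, or 8 and 20 on the TPM scale. With FPKM values 36.8% of all tested genes rose and 31.8% fell there.

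Over the 8 libraries, the tested genes outside the members whose log2(FPKM + 1) was most like that of ISG15 were AEN (Pearson r = 0.999), RSAD2 (0.998), PLSCR1 (0.996), IRF9 (0.994), IFI6 (0.991), PPP1R15A (0.988), OAS1 (0.985), IFIT2 (0.983), PLK2 (0.98) and CCL5 (0.978). These points share libraries and are only 4 groups of 2, so r is a description. The antiviral genes RSAD2, IFI6, OAS1 and IFIT2 are classical interferon targets, while AEN and PLK2 are known as p53 targets and PPP1R15A as a stress gene. Among the members, UBE2L6 came closest with r = 0.964 (rank 18 of 10647), then USP18 with 0.948 (rank 34), HERC6 with 0.762 (rank 290) and HERC5 with 0.655 (rank 512).

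The levels of these 10 genes in OE and Vector are likewise a description. IFI6 had 49.8 and 56.9 FPKM in OE, against 30.5 and 32.9 FPKM in Vector, a log2 difference of 0.73 ± 0.06. It was 0.71 ± 0.07 for IFIT2, 0.55 ± 0.11 for CCL5 and 0.13 ± 0.04 for AEN. The 10 genes were picked for their likeness to ISG15 over these same libraries, so their direction follows from that choice. In ASO against ASONC their log2 differences lay between -0.52 for PLK2 and -3.13 for CCL5.

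The nearest measured genes beside ISG15 were also lower in ASO than in ASONC. HES4, 13400 bases away on the lower side in RefSeq, had 8.11 and 5.88 FPKM in ASO, against 11.9 and 12.4 FPKM in ASONC, and fell by 0.73 ± 0.12 (limma, adjusted p = 0.00125). AGRN, 5580 bases away on the higher side, fell by 0.27 ± 0.05 (adjusted p = 0.00249). Against Vector, AGRN in ASO differed by 0.01 ± 0.05 and was not called, or by -0.17 and called on the TPM scale. In ASONC AGRN differed by 0.28 ± 0.05 and was called, or by 0.07 and not called on the TPM scale. HES4 in ASO differed from Vector by -0.41 ± 0.12, called. In ASONC HES4 differed by 0.32 ± 0.12, or by -0.49 with the GC and length trend removed, called in both. On the TPM scale it was 0.13 there and not called. In OE against Vector neither was called, at -0.14 ± 0.12 for HES4 and 0.02 ± 0.05 for AGRN. Most other neighbours were under 1 FPKM on average, except TRAIP beside UBA7, which differed by 0.14 ± 0.07 in ASO against ASONC and was not called.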

How the data were processed

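RNA-seq libraries from total RNA of A549 cells were made with a VAHTS kit, per the labels' protocols. The authors deposited FPKM values per gene symbol in a table of 8 columns, all mapped by name. HISAT2, featureCounts, HTSeq, R 3.2.0 and hg38 (GRCh38) appear in the submitters' processing notes without their roles. No source used here gives the annotation, strand use or filters. FPKM divides by the library total, so large changes in some genes shift others.

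Whole reads were recovered from the FPKM steps for 100.0% of 17056 genes within 0.02 reads, and summed to 33662221 to 37508996 per library. A gene above 0 in only 1 library always fits, so that share is no check for such genes. Above 0 in every library were 13444 genes. Genes averaging 1 FPKM or more over the 8 libraries, 10648 in number, were tested on log2(FPKM + 1) with limma (version 3.58.1, R version 4.3.3). Its empirical Bayes step was two-sided and used a trend on the mean, with all 4 groups in 1 fit and 4 residual degrees of freedom. A call required a Benjamini-Hochberg adjusted p under 0.05. The fit was also run on simulated data that lack the shift with GC content and length seen here, so nothing is read from that run. An exact permutation test of 2 against 2 libraries cannot go below 0.333. Counts of replicate libraries differed beyond sampling noise, at a chi-square of 5.11 to 5.88 per degree of freedom. The labels do not tie replicates to separate cultures, and p-values reflect only how these libraries spread, which may be technical.

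The members and gene lists were chosen with earlier results of these data known. Named were the members, their family relatives, up to 4 genes of each list with the smallest p in each comparison, the nearest measured genes, and the 10 genes most like ISG15. Marker genes were listed by cell type. A few named genes are not reported here singly and stay in the list counts. Positions and promoters came from RefSeq (GRCh38.p14), and lengths, GC content and overlaps from GENCODE release 29. Alternatives were a pseudocount of 0.1, no filter, median-of-ratios and TPM scaling, fitting only the libraries compared, a replicate block, voom on recovered reads, each library left out, and removal of a GC and length trend, which was chosen after seeing the data.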

Additional observations from a re-analysis of the deposited data

How the results depend on the processing

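In the 240 member values recomputed under 12 alternatives, 192 moved by less than the replicate SD, 47 moved by more and 1 reversed. That one was UBE2L6 in ASONC against Vector, at 0.24 with FPKM values and -0.19 with the GC and length trend removed, called in both, and the cause was not tested. The ISG15 call in OE was lost with no filter on low values and kept under the other 11 alternatives. All 5 tested members kept their ASO against ASONC calls under all 12. The UBE2L6 call in ASO against Vector was lost with voom on recovered reads.

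Of all tested genes, 7 were called in OE against Vector, against 0 with no filter (1033 at an unadjusted p below 0.05), 27 with voom on recovered reads, and 6 to 12 with a library left out, the 12 without Vector replicate 2. Pathway genes called in that comparison were 0, and 4 with voom on recovered reads. ASO against ASONC called 2369 genes, and 1176 to 1610 with a library left out. It called 1176 without ASO replicate 2, 1323 without ASONC replicate 2 and 1494 without ASO replicate 1. A lone library in a group is then assumed to vary like the others.

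Scaling moved the share of calls that were higher. For ASO against ASONC that share was 50.8%, with 62.1% under median-of-ratios and 66.8% under TPM scaling. For ASONC against Vector it was 53.6%, with 31.7% under TPM scaling, and for ASO against Vector 54.2%, with 31.9%. TPM scaling put the median difference of all genes at -0.164 in ASONC against Vector and -0.128 in ASO against Vector, against 0.037 and 0.034 with FPKM values.

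Replicate numbers did not pair the libraries: the correlation of replicate differences between groups ran from -0.061 to 0.062. With a replicate block, 8 genes were called in OE against Vector, 2315 in ASO against ASONC, 7320 in ASONC against Vector and 6707 in ASO against Vector. Depth limits UBA7 most, at 2 to 44 reads in a library.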
